A study of Saccharomyces cerevisiae with 96 samples.

Results

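The noncoding RNA gene probe sets were the probe sets of the Affymetrix YG-S98 yeast array that the array annotation tied to 1 gene and whose gene is a snoRNA, snRNA, tRNA, rRNA or ncRNA gene in the RefSeq annotation. Pseudogenes were left out. There were 161 such probe sets, of 156 genes, among the 9275 probe sets that were not array controls. tRNA genes gave 92 of them, snoRNA genes 59 (42 of the C/D type and 17 of the H/ACA type), spliceosomal snRNA genes 4 and rRNA genes 6, and none was of the ncRNA type. The arrays were hybridised with cRNA from whole yeast cultures of 2 congenic strains, S288C (Nmd+, UPF1) and YRZ1 (Nmd-, upf1-Δ, with UPF1 replaced by KanMX4), which otherwise share the markers SUC2, CUP1, mal, mel, gal2, flo1 and flo8-1. Each strain was followed in 3 separate courses, at 16 times from 0 to 60 min after mid-log cultures received thiolutin, an antibiotic that blocks transcription in yeast. The labels give 10 µg/ml thiolutin for 90 arrays and 14 µg/ml for the 6 arrays at 4 min. Each group is 1 strain, so the effect of the UPF1 deletion and any other difference between the strains cannot be told apart.

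Nonsense-mediated mRNA decay (NMD) is tied to translation: the UPF proteins act on an mRNA whose ribosomes stop at a premature or otherwise aberrant termination codon, and the mRNA is then decapped and degraded. RNAs that are never translated have no termination codon to be read, so the noncoding RNA genes are a set on which the pathway has no known direct hold. C/D snoRNAs guide the 2′-O-methylation of rRNA and H/ACA snoRNAs guide its pseudouridylation, while a few snoRNAs are needed for cleavage of the rRNA precursor. The spliceosomal snRNAs are the RNA core of the spliceosome, and tRNAs carry amino acids to the ribosome. All of them work as stable RNA-protein particles or processed RNAs that lack a long poly(A) tail, whereas their unprocessed precursors and decay intermediates can be polyadenylated. The cDNA here was primed with oligo(dT) on total RNA, and how much of each signal came from mature RNA was not tested.

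Values are given as log2 signal of robust multi-chip average (RMA) data, which sets each array's distribution to that of the others. A change therefore means a change relative to the bulk of the RNA on the same array, and whether fewer cells held an RNA or each cell held less of it cannot be told apart in whole cultures. Mean signals of the members ran from 2.04 to 9.70, and 88 of the 161 had a mean of at least 5. Most tRNA probe sets (75 of 92) carry the _f_at suffix, which marks probes that match several members of a gene family, and 13 carry _s_at, which marks probes shared by more than 1 transcript, so these report groups of near-identical tRNAs rather than single genes. In contrast, 56 of the 63 snoRNA and snRNA probe sets carry the plain _at suffix. Of the members, 9 overlap a protein-coding gene, among them SNR17A with IRC13 and the 4 snoRNAs that lie in introns. Without strand-specific information their signals cannot be told from those of the overlapping gene.

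UPF1 and KanMX4 checked the strain labels. On 46 arrays labelled Nmd+, UPF1 signal was between 5.42 and 7.44 and KanMX4 between 3.34 and 6.26. On 44 arrays labelled Nmd-, UPF1 was between 1.93 and 3.81 and KanMX4 between 11.65 and 12.54. On 6 arrays at least 1 marker went against the label: the arrays labelled Nmd- replicate 1 at 10, 40, 45 and 50 min, Nmd+ replicate 1 at 20 min and Nmd+ replicate 3 at 60 min. None of them was a 0 min array. On the 4 labelled Nmd- both markers lay in the Nmd+ range, with UPF1 at 5.89 to 6.20 and KanMX4 at 4.99 to 5.38. On the 2 labelled Nmd+, UPF1 was 6.27 and 5.43, but KanMX4 was 8.28 and 11.28, between the ranges of the strains. Replicate 1 of both strains was mostly scanned in one period (26 arrays) and the other replicates in a second (61 arrays), with 9 arrays in a last one, so scan period and replicate 1 cannot be told apart over most times.

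At 0 min, before transcription was blocked, no noncoding RNA probe set was called different between the strains. A call needed a 1.5-fold difference and, in limma's moderated linear model, an adjusted p below 0.05. By that rule 0 of 161 members were higher in Nmd- and 0 were lower, beside 4.28% and 0.701% of all 9275 probe sets. The smallest adjusted p among the members was 0.177, and significance analysis of microarrays (SAM) also called 0. Before adjustment, 1 member had a p under 0.05, against 18.8% of all probe sets. The median difference, Nmd- minus Nmd+, was -0.09 on the log2 scale over the members and -0.05 over all probe sets, with -0.09 for tRNA, -0.15 for C/D snoRNA, -0.06 for H/ACA snoRNA, -0.06 for spliceosomal snRNA and 0.04 for rRNA probe sets. The rRNA value was -0.03 when each array was centred on its median. The sign of the members' median depended on single courses, from -0.30 without Nmd- replicate 2 to 0.10 without Nmd- replicate 1, and it was 0.09 with the chip lot as a block. The 0 min arrays of Nmd+ replicate 2 and Nmd- replicate 1 were scanned in the last period, and with scan period as a block the median was -0.18. These data bound a difference loosely: the 95% confidence interval (CI) lay wholly within 1.5-fold for 18 members and within 2-fold for 114.

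The member with the smallest p at 0 min was a probe set of RDN25-1, which encodes the large-subunit rRNA. Its signal was 2.92, 2.93 and 3.02 in the 3 Nmd+ courses and 3.42, 3.76 and 3.33 in the 3 Nmd- courses. The Nmd- values were all above the Nmd+ values, by 0.55 on average (95% CI 0.11 to 0.99, limma adjusted p = 0.177), although the other RDN25-1 probe set differed by -0.01. No overlap with Nmd- lower was seen for SNR64, a C/D snoRNA, and for the tRNA gene YNCD0022C, and no other member had separate ranges (13.8% of all probe sets had Nmd- wholly higher and 10.8% wholly lower). SNR64 gave 3.34, 3.09 and 3.16 in Nmd+ and 2.85, 3.07 and 2.83 in Nmd-. YNCD0022C gave 7.22, 7.10 and 7.33 in Nmd+ and 6.48, 6.95 and 7.08 in Nmd-. Neither difference passed the adjustment over all probe sets (limma adjusted p = 0.456 and 0.391). The values given for RDN25-1 and SNR64 all lie in the range that UPF1 read where it is deleted (1.93 to 3.81). Those 2 probe sets were therefore not shown to be above background.

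The differences that were largest in size at 0 min came with wide replicate spread. SNR46, an H/ACA snoRNA, had the largest value in the Nmd- direction at 0.81 (limma adjusted p = 0.347), from 3.69, 5.15 and 4.44 in Nmd+ against 4.70, 5.83 and 5.17 in Nmd-. The intron-borne C/D snoRNA SNR39 was next at 0.67 (adjusted p = 0.409), with 4.92, 6.15 and 5.64 against 5.57, 6.72 and 6.42. The C/D snoRNA SNR66 followed at 0.62 (adjusted p = 0.679). In all 3 the ranges of the strains overlapped. In the other direction stood SUF2, a proline tRNA gene known for frameshift suppressor alleles, at -0.75 (adjusted p = 0.431). Its Nmd+ values of 3.32, 3.88 and 4.34 overlapped the Nmd- values of 2.56, 4.15 and 2.56. SNR3, an H/ACA snoRNA, gave -0.72 (adjusted p = 0.33) and the tRNA gene YNCE0008C -0.69 (adjusted p = 0.567), the latter from Nmd- values as far apart as 2.68 and 5.29.

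**Figure D1:**
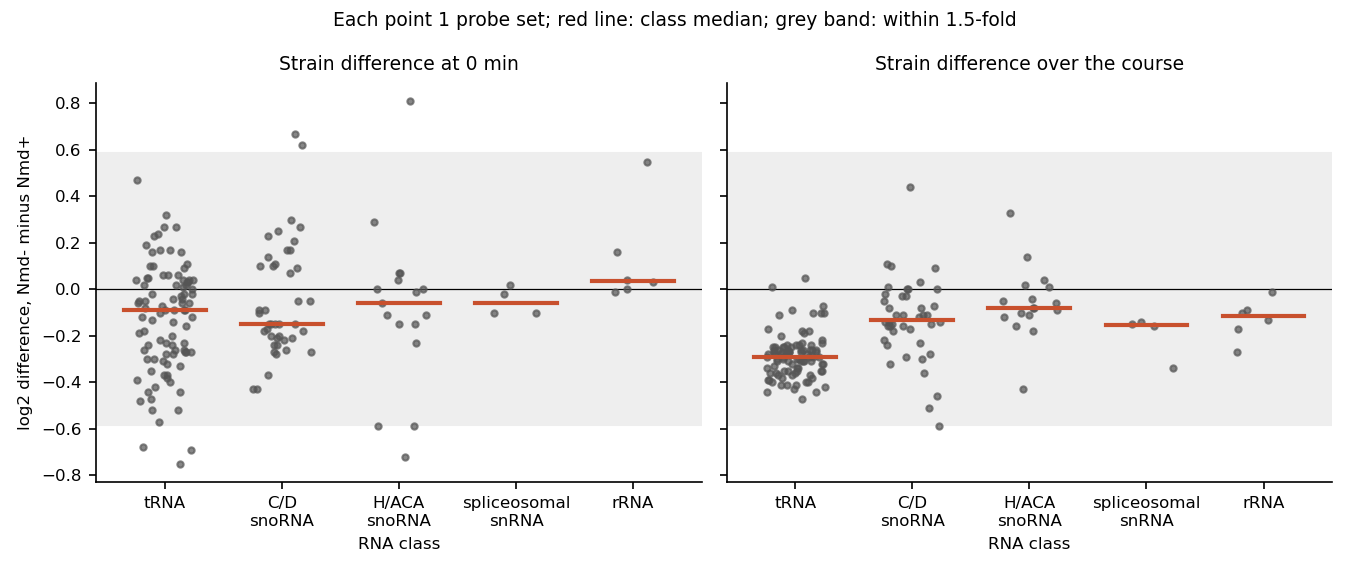
Strain difference in log2 signal (Nmd- minus Nmd+, vertical axis) of each noncoding RNA probe set by RNA class, at 0 min on the left and as the mean over the 16 times on the right; each point is 1 probe set, red lines are class medians and the grey band is the range within 1.5-fold. Medians over the course lie at -0.29 for tRNA and -0.13 for C/D snoRNA probe sets, and no point is a called difference.

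Averaged over the 16 times of each course, the noncoding RNAs were again not called different. No member was higher and none was lower (2.64% and 0.0755% of all probe sets), with a smallest adjusted p of 0.329 and 3 members under an unadjusted p of 0.05, compared with 10.2% of all probe sets. The members did lie to one side: 146 of 161 (90.7%) had a difference below 0, as did 62.8% of all probe sets, and the median was -0.25 against -0.09. Over all arrays together, tRNA probe sets carried most of this, with 90 of 92 below 0 and a median of -0.29. The exceptions were EMT5, an elongator methionine tRNA gene, at 0.01 and 1 of the HSX1 probe sets at 0.05. The median was -0.13 for C/D snoRNA, -0.08 for H/ACA snoRNA, -0.15 for spliceosomal snRNA and -0.11 for rRNA probe sets, and the H/ACA value was 0.01 when a reference set was used for scaling. The 92 tRNA probe sets are not 92 measurements of the strains, since they share probes, arrays and cultures: between pairs of them the median Pearson r over the 96 arrays was 0.67.

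The size of the tRNA difference depended on single courses. The mean over the times of the class median was 5.61, 5.76 and 5.33 in the Nmd+ courses and 5.38, 5.53 and 4.81 in the Nmd- courses. Replicate 3 of Nmd- was the lowest of the 6 and the strains overlapped, 2 of the Nmd- courses lying above the lowest Nmd+ course. Between courses of the same replicate number, which paired the course means, Nmd- was the lower each time, with differences of -0.23, -0.23 and -0.52. Without that course the median tRNA difference was -0.11, and over the 6 ways of leaving out a course it ran from -0.41 to -0.11. Within scan period 1 it was -0.06 (60 of 92 below 0), within period 2 -0.39 (92 of 92) and within period 3, with 2 matched times, 0.14 (28 of 92). Leaving out the 6 arrays with a marker against the label gave -0.20, -0.39 and -0.14. The shift was not particular to tRNA in each period. For C/D and H/ACA snoRNA probe sets the medians were -0.18 and -0.17 in period 1, -0.09 and 0.01 in period 2, and -0.16 and -0.08 in period 3. Without the 6 arrays they were -0.52 and -0.37, -0.09 and 0.00, and -0.40 and -0.45. The part of scan period and course in the shift was not tested.

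Of single members, 6 had Nmd- course means wholly below those of Nmd+ and 0 had them wholly above (6.19% and 10.3% of all probe sets). They were the tRNA probe sets SUF2, YNCC0005W, YNCB0015W, YNCP0007C and YNCM0033C and the C/D snoRNA SNR76. YNCB0015W averaged 4.53, 4.83 and 4.58 in Nmd+ and 4.23, 4.34 and 3.97 in Nmd-, a difference of -0.47 (95% CI -0.85 to -0.08, limma adjusted p = 0.329). SNR76 averaged 5.39, 4.99 and 5.23 against 4.88, 4.90 and 4.31, a difference of -0.51 (adjusted p = 0.462). The largest value in size was that of SNR67, a C/D snoRNA, at -0.59 (adjusted p = 0.749). It came from 1 course, Nmd- replicate 1 at 8.20, while the other 5 courses lay between 9.66 and 10.36. On the positive side SNR39 stood at 0.44 (adjusted p = 0.749), SNR46 at 0.33 (adjusted p = 0.759) and SNR35, an H/ACA snoRNA, at 0.14 (adjusted p = 0.867), none of them beyond the spread of the courses. With the replicate number as a block the calls over all probe sets rose from 245 to 598 higher and from 7 to 66 lower, while those among the members stayed at 0.

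Over the hour in thiolutin a small group of snoRNAs fell relative to the bulk of the RNA, and the change of most other noncoding RNAs was not called. The change was taken in each course as the mean at 45, 50 and 60 min minus the mean at 0 and 2 min. In Nmd+, 11 members fell and 1 rose (14.3% and 11.1% of all probe sets), and before adjustment 29 members (18.0%) had a p under 0.05 against 41.2% of all. In Nmd-, 3 members fell and 0 rose (11.1% and 9.97%), with 23 members (14.3%) under an unadjusted 0.05 against 38.2%. The shares of members called were thus below those of all probe sets in both strains with RMA scaling, all arrays and these windows. For falls this order turned under several alternatives. In Nmd+ it turned with scaling to a reference set (70.2% of members against 57.2%). It also turned for the slope over all 16 times (34 of 161 members against 1482 of 9275 probe sets). For 45 to 60 against 2 and 4 min the counts were 24 members against 1226 probe sets. In Nmd- it turned without the 6 arrays (16.1% against 12.9%) and with a running median along the probe set numbers subtracted (20 against 978). With both steps the counts were 75 against 1244, and the order only just turned with the reference set (62 against 3554). The median change was -0.08 over the members in each strain, beside 0.05 and 0.02 over all probe sets. It was small and not stable: leaving out 1 course gave -0.22 (without Nmd+ replicate 1) to 0.04 (without Nmd+ replicate 3) in Nmd+ and -0.25 (without Nmd- replicate 1) to -0.02 (without Nmd- replicate 2) in Nmd-, and subtracting a running median along the probe set numbers gave -0.34 and -0.39. The 565 other probe sets numbered among the tRNA probe sets had medians of 0.39 and 0.40. The members called were nearly all snoRNAs: in Nmd+ 8 C/D and 2 H/ACA snoRNAs and 1 tRNA fell and 1 C/D snoRNA rose, and the 3 called in Nmd- were C/D snoRNAs. By class the median change in Nmd+ was -0.17 for C/D snoRNA, -0.08 for H/ACA snoRNA, -0.02 for tRNA, -0.04 for rRNA and 0.18 for spliceosomal snRNA probe sets. The tRNA and rRNA medians turned to 0.03 and 0.01 when arrays were centred on their medians, and with scaling to a reference set all 5 were below 0, as was that of all probe sets (-0.68). Under that scaling 0 members rose and 113 fell in Nmd+ (3.06% and 57.2% of all probe sets), and 0 rose and 62 fell in Nmd- (3.01% and 38.3%).

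**Figure D2:**
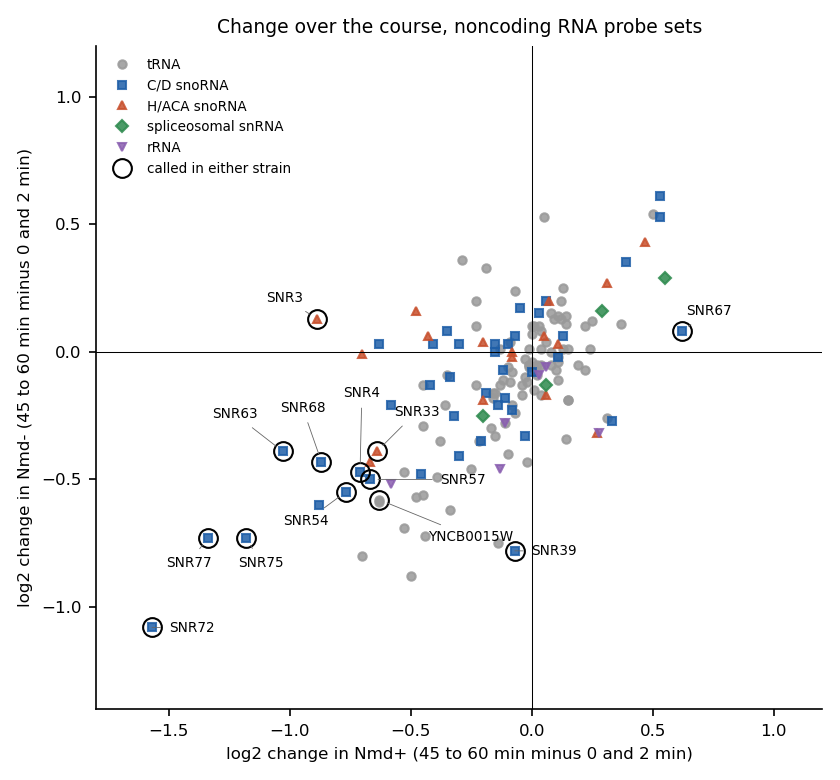
Change over the course (mean at 45 to 60 min minus mean at 0 and 2 min, log2) of each of the 161 noncoding RNA probe sets in Nmd+ (horizontal axis) and Nmd- (vertical axis), by class; circled and named points were called in at least 1 strain. SNR72 lies at -1.57 and -1.08, and 79 of the 161 points lie below 0 in both strains with RMA scaling.

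The 3 largest falls in Nmd+ belonged to a single cluster. SNR72 to SNR78 are 7 C/D snoRNAs that are transcribed together as 1 polycistronic precursor and cut apart by the endonuclease Rnt1, and each has a probe set here. SNR72 went from 6.21, 6.98 and 5.80 early to 4.43, 5.11 and 4.74 late in the 3 Nmd+ courses, and from 5.35, 6.25 and 6.51 to 4.86, 5.39 and 4.61 in Nmd-. In each course the late value was below the early one. SNR72 fell by 1.57 in Nmd+ (SE 0.27, limma adjusted p = 0.00411) and by 1.08 in Nmd- (SE 0.27, adjusted p = 0.0251). SNR75 changed by -1.50, -0.66 and -1.37 in the Nmd+ courses and -0.27, -0.79 and -1.13 in the Nmd- courses. It too was called in both strains, at -1.18 (SE 0.22, adjusted p = 0.00511) and -0.73 (SE 0.22, adjusted p = 0.0435), although the Nmd- call was lost under 8 of the 21 alternatives. SNR77 changed by -1.55, -1.02 and -1.47 in Nmd+, a called fall of 1.34 in size (SE 0.27, adjusted p = 0.00767). In Nmd- it gave -0.06, -0.53 and -1.62, which did not pass (mean -0.73, adjusted p = 0.0861).

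The other 4 cluster members were not called in either strain, although they share the precursor. SNR76 gave -0.88 in Nmd+ (adjusted p = 0.071) and -0.60 in Nmd- (adjusted p = 0.204), SNR73 -0.30 and -0.41, SNR74 -0.15 and 0.03, and SNR78 -0.10 and 0.03. The median of the cluster was -0.88 in Nmd+ and -0.60 in Nmd-. Probe sets differ in signal (SNR78 averaged 2.19, close to the lowest of the members), so the values do not show that the 4 RNAs changed less than the other 3. Before thiolutin, the strain differences of the 7 ran from -0.27 to -0.09, and none was called.

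**Figure D3:**
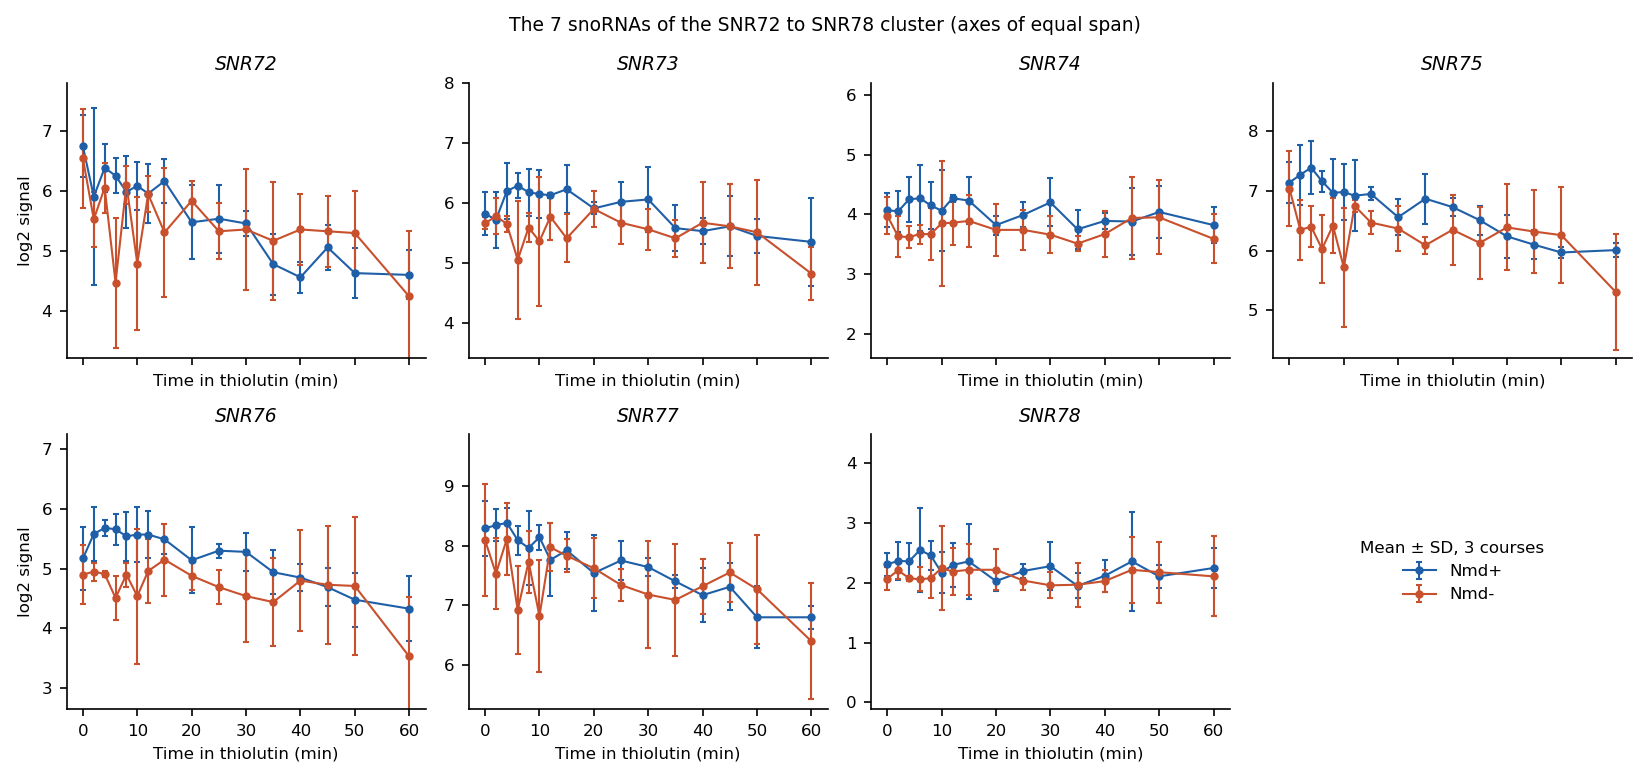
Log2 signal (vertical axes, of equal span) against time in thiolutin (horizontal axes, min) for the 7 C/D snoRNAs of the SNR72 to SNR78 cluster, as mean ± SD of the 3 courses of Nmd+ (blue) and Nmd- (red). SNR72 goes from 6.75 at 0 min to 4.60 at 60 min in Nmd+ and from 6.55 to 4.24 in Nmd-, with RMA scaling.

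The remaining calls in Nmd+ were spread over separate genes. SNR63, a C/D snoRNA with its own promoter, changed by -0.64, -1.19 and -1.27 in the 3 courses, a fall of 1.03 in size (SE 0.22, limma adjusted p = 0.00869), from 5.61, 6.02 and 5.70 to 4.97, 4.83 and 4.43. The early and late values did not overlap. Its change in Nmd- was -0.39 (adjusted p = 0.22). The C/D snoRNAs SNR68 (-0.87, SE 0.18, adjusted p = 0.0092), SNR54 (-0.77, SE 0.18, adjusted p = 0.0146), SNR4 (-0.71, SE 0.16, adjusted p = 0.0123) and SNR57 (-0.67, SE 0.18, adjusted p = 0.0263) also fell in Nmd+. Each of them went down in all 3 Nmd+ courses, as did 36 members in total (28.6% of all probe sets did), while 16 members went up in all 3 (33.6%). The mean signal of SNR57, 2.36, lies in the range that UPF1 read where it is deleted (1.93 to 3.81), so that probe set was not shown to be above background and the size of its change is uncertain. SNR68 and SNR54 began above that range in Nmd+, with means of 4.75 and 4.48 at 0 min. Their means were 4.08 and 3.95 at 45 min, but lay within it at 50 min (3.33 and 3.70) and 60 min (3.74 and 3.74). The size of their falls is therefore uncertain too. In Nmd- SNR68, SNR54, SNR4 and SNR57 gave -0.43, -0.55, -0.47 and -0.50, and none was called there. SNR33, an H/ACA snoRNA, gave -0.64 in Nmd+ (adjusted p = 0.0283), and the tRNA gene YNCB0015W, the 1 tRNA called, gave -0.63 (adjusted p = 0.049) with -0.34, -0.48 and -1.06 by course. YNCB0015W lost its call under 9 of the alternatives run. SNR45, a C/D snoRNA, passed the adjusted p in both strains at -0.46 (adjusted p = 0.0468) and -0.48 (adjusted p = 0.0474) but was under 1.5-fold.

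SNR67 was the only member called higher, in Nmd+, and its direction depends on the scaling. Its signal in Nmd+ was 9.99, 9.45 and 9.33 early and 10.51, 9.92 and 10.21 late, and within each course the late value was the higher. The change was 0.62 (SE 0.14, limma adjusted p = 0.0137), but it was -0.10 when each array was scaled to a set of reference probe sets. In Nmd- it was 0.08 (adjusted p = 0.712), with 1 course far below the others at each time window (8.14 early and 8.18 late).

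SNR3, an H/ACA snoRNA, had higher means from 2 to 30 min than at either end of the course. Its signal was 4.28, 4.99 and 4.07 at 0 min in Nmd+ and 3.24, 4.39 and 3.56 in Nmd-. At 2 min the means were 5.65 in Nmd+ and 5.48 in Nmd-, and the highest means were 5.88 at 6 min in Nmd+ and 5.93 at 8 min in Nmd-. The means were still 5.66 in each strain at 15 min, and 4.92 in Nmd+ and 5.42 in Nmd- at 30 min. By 60 min they were 4.20 and 4.16, beside 4.45 and 3.73 at 0 min. The median of the H/ACA class peaked at the same times, at 5.31 and 5.37, from 4.68 and 4.56 at 0 min. The called change in Nmd+ (-0.89, SE 0.23, adjusted p = 0.0195) therefore depended on the times compared: between 60 and 0 min it was -0.24, and not called. In Nmd- the late minus early change was 0.13 (adjusted p = 0.711).

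SNR39 was called in Nmd- and not in Nmd+. It changed by -0.51, -1.07 and -0.75 in the Nmd- courses (mean -0.78, SE 0.19, limma adjusted p = 0.0219) and by 0.40, -0.37 and -0.24 in the Nmd+ courses (mean -0.07, adjusted p = 0.82). In Nmd- all 3 courses went down, as they did for 42 members (27.9% of all probe sets), and 10 members went up in all 3 (29.7%). The difference between the strains in this change was -0.71 (95% CI -1.33 to -0.09, adjusted p = 0.37) and was not called. The largest values in Nmd- that were not called were those of the tRNA genes YNCC0010C (-0.88, adjusted p = 0.0832), from -0.14, -0.65 and -1.86, and YNCB0013W (-0.80, adjusted p = 0.0997). On the positive side SNR62, a C/D snoRNA, gave 0.61 and 0.53 at its pair of probe sets (adjusted p = 0.0576 and 0.113), with the same gene at 0.53 for both in Nmd+. The tRNA gene YNCC0005W gave 0.54 in Nmd- (adjusted p = 0.0535) and 0.50 in Nmd+.

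The Nmd- values changed strongly when the arrays whose markers went against the label were left out. Of these arrays, 2 are late arrays of Nmd- replicate 1 (45 and 50 min) and 1 is the 60 min array of Nmd+ replicate 3. Leaving them out also narrows the late window: the late value of Nmd- replicate 1 is then its 60 min array alone, scanned in the last period. Without all 6 arrays, 26 members fell in Nmd- and 0 rose (12.9% and 14.0% of all probe sets), with 12 tRNA, 10 C/D snoRNA, 2 H/ACA snoRNA and 2 rRNA probe sets among them. All 3 of the calls made with the full set of arrays were kept: SNR72 was then at -1.70 (limma adjusted p = 0.00359), SNR75 at -1.27 (adjusted p = 0.00687) and SNR39 at -0.97 (adjusted p = 0.00733). The cluster members SNR77 (-1.21), SNR76 (-1.22) and SNR73 (-0.74) were called as well. So were the tRNA genes YNCC0010C (-1.26) and YNCB0013W (-1.21), and RDN5-1 and RDN5-3, genes of the small rRNA of the large subunit, at -1.02 and -0.75. The median change of the members in Nmd- was then -0.32 against 0.00 over all probe sets. For 60 against 0 min, which takes in no Nmd- array with such markers, 23 members were called lower and 2 higher in Nmd-. Of all probe sets, 1429 were lower and 1321 higher there. The parts of the markers and of the narrowed window in the 26 calls were not tested. In Nmd+ leaving out the 6 arrays kept 10 of the 12 calls, 9 lower and 1 higher (12.8% and 10.6% of all probe sets), and SNR33 (-0.59) and YNCB0015W (-0.68) no longer passed.

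No member's change over the course was called different between the strains. The count was 0 in each direction, as it was for all 9275 probe sets (0.0% in each), the smallest adjusted p of a member was 0.313, and 4 members (SNR3, SNR39, SNR67 and SNR43) had an unadjusted p under 0.05 against 12.0% of all probe sets. The largest difference, Nmd- minus Nmd+, was that of SNR3 at 1.02 (95% CI 0.29 to 1.75, limma adjusted p = 0.313). SNR44, an H/ACA snoRNA, followed at 0.69 (adjusted p = 0.47), and SNR13, a C/D snoRNA, at 0.67 (adjusted p = 0.444). On the negative side, SNR39 at -0.71 was followed by the tRNA gene YNCG0028W at -0.61 (adjusted p = 0.498) and an RDN25-1 probe set at -0.60 (adjusted p = 0.545). The median over the members was -0.02, and -0.27 without the 6 arrays. SNR43, an H/ACA snoRNA, was the 1 member whose 3 Nmd+ courses all went up and whose 3 Nmd- courses all went down, and 3.86% of all probe sets had courses in such opposite directions. The 95% CI of the difference lay within 2-fold for 111 of the 161 members.

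Intron-borne snoRNAs could be set beside the mRNA of the gene that carries them. These snoRNAs are released from the excised intron of a host pre-mRNA, and their hosts encode translation factors, ribosomal proteins and metabolic enzymes. SNR38 lies in an intron of TEF4, which encodes a subunit of translation elongation factor 1B. SNR38 changed by 0.16, 0.08 and -0.06 in the Nmd+ courses (mean 0.06, limma adjusted p = 0.799) and by 0.32, 0.38 and -0.11 in the Nmd- courses (mean 0.20, adjusted p = 0.368). Meanwhile both TEF4 probe sets fell, by 1.71 and 1.49 in Nmd+ (adjusted p = 0.000925 and 0.00098) and by 1.19 and 0.89 in Nmd- (adjusted p = 0.00776 and 0.0128), in each course. Within a course the snoRNA and host values did not overlap in either strain.

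By the means the same order held for the other 3 pairs, except at RPL7A in Nmd-, and single courses departed from it. IMD4, which encodes an IMP dehydrogenase, fell by 2.57 and 2.49 in Nmd+ while SNR54 in its intron fell by 0.77. The late SNR54 signal reached the range that UPF1 read where it is deleted, so the size of its fall is uncertain. In Nmd- the values were -1.57 and -2.05 for IMD4 and -0.55 for SNR54 (adjusted p = 0.0605). RPS22B, a ribosomal protein gene, had 3 probe sets at -1.45, -1.14 and -1.22 in Nmd+, and SNR44 stood at -0.70 (adjusted p = 0.0685). In Nmd+ replicate 3 SNR44, at -0.98, lay below RPS22B values of -0.93 and -0.73, though above -1.10. In Nmd- SNR44 was at -0.01, with RPS22B at -0.86, -0.65 (not called) and -0.74. RPL7A, another ribosomal protein gene, gave -1.59 and -1.60 at a pair of probe sets and -0.49 at a further one in Nmd+, where SNR39 was at -0.07. In Nmd+ replicate 3 SNR39 was at -0.24 and that further probe set at -0.22. In Nmd- the order at RPL7A was mixed, with SNR39 at -0.78, between host values of -1.34, -0.90 and -0.57. The difference between a snoRNA and its host was not tested, since they are read by different probes.

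**Figure D4:**
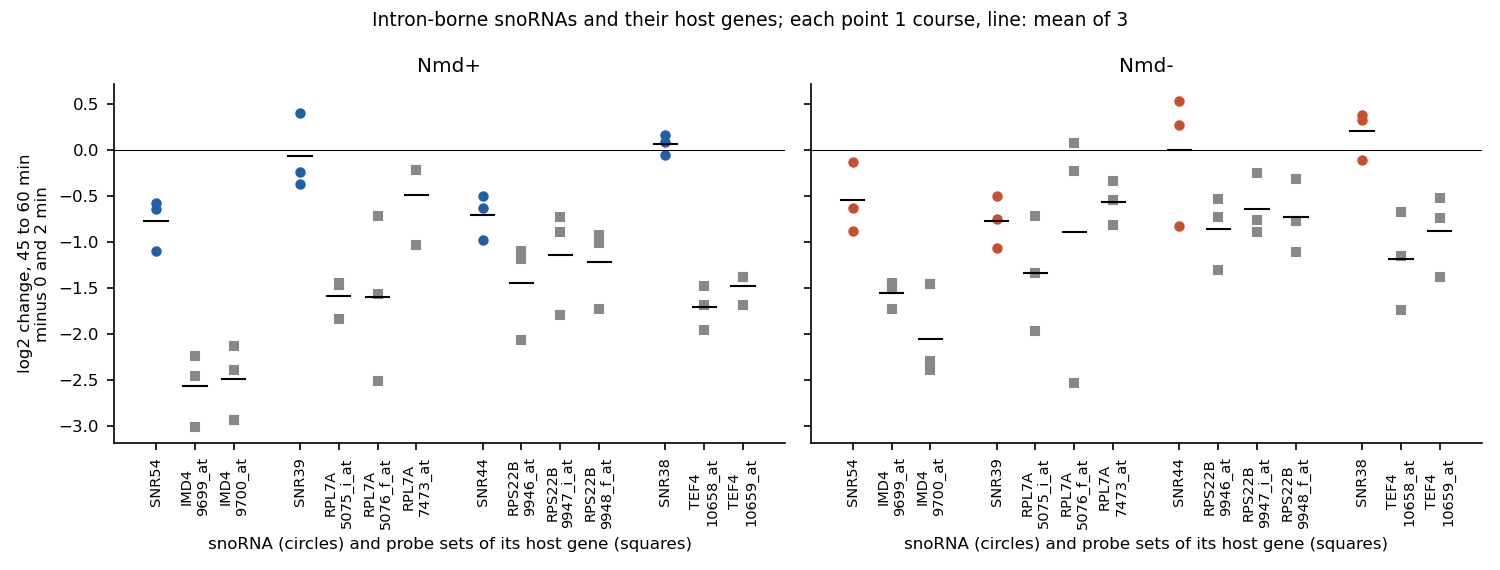
Change over the course (mean at 45 to 60 min minus mean at 0 and 2 min, log2, vertical axes) of the 4 intron-borne snoRNAs (coloured circles) and of each probe set of the host gene (grey squares) in Nmd+ (left) and Nmd- (right); each point is 1 course and black lines are means of 3. SNR38 lies near 0 (means 0.06 and 0.20) while its host TEF4 lies between -1.71 and -0.89, with RMA scaling.

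By transcription unit, the 17 snoRNAs from clusters had a median change of -0.32 in Nmd+ (4 called lower and 1 higher), the 4 in introns -0.39 (1 lower) and the 40 snoRNAs and snRNAs with their own gene and RNA polymerase II promoter -0.08 (5 lower), beside 0.05 over all probe sets, of which 14.3% were called lower and 11.1% higher. In Nmd- the medians were -0.21, -0.28 and -0.01, with 2, 1 and 0 called lower (11.1% of all probe sets). The clusters were not alike: the 3 members of SNR41-SNR70-SNR51 had a median of -0.32 in Nmd+ with none called, and of the 3 of SNR57-SNR55-SNR61 only SNR57 was called.

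None of the spliceosomal snRNAs was called in any comparison. SNR14 (U4) gave 0.45, 0.24 and 0.19 in the Nmd+ courses and 0.13, 0.20 and 0.15 in the Nmd- courses, all above 0 (mean 0.29, limma adjusted p = 0.133, and mean 0.16, adjusted p = 0.418), and -0.02 between the strains at 0 min. SNR6 (U6), which unlike the others is made by RNA polymerase III, gave 0.55 in Nmd+ (adjusted p = 0.096) and 0.29 in Nmd- (adjusted p = 0.37). SNR19 (U1) gave -0.20 and -0.25, and the long form of U5, SNR7-L, gave 0.06 and -0.13. At 0 min the 4 differed between the strains by -0.10 to 0.02. The U2 gene LSR1 shares its probe set with another gene name and was not a member. SNR17A (U3), needed for the first cleavages of the rRNA precursor, gave 0.39 in Nmd+ (adjusted p = 0.115) and 0.35 in Nmd- (adjusted p = 0.161), and SNR128 (U14), which shares that role, -0.42 (adjusted p = 0.175) and -0.13.

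tRNA and rRNA probe sets moved together from array to array. Pairs of rRNA probe sets had a median Pearson r of 0.82 over the 96 arrays (15 pairs), pairs of tRNA probe sets 0.67, tRNA with rRNA 0.58, pairs of H/ACA snoRNAs 0.46 and pairs of C/D snoRNAs 0.33, as a description of shared arrays, cultures and probes. Signal at 2 min minus signal at 0 min, taken for each tRNA probe set, had a median over the 92 of 0.51, 1.13 and -0.05 in the 3 Nmd+ courses and of 0.86, 0.13 and 0.02 in the Nmd- courses. Over the 6 rRNA probe sets these medians were 0.91, 0.49 and 0.13 in Nmd+ and 1.79, 0.26 and 0.15 in Nmd-. The difference thus varied widely among the courses of each strain, and the strains overlapped. The largest tRNA medians, 1.13 and 0.86, came from courses whose 0 min array was scanned in period 3 and whose 2 min array was not. In the other courses, among them the one with the rRNA median of 0.91, both arrays were of the same period. The part of scan period in these differences was not tested. rRNA differed most between courses: the mean over the times was 5.37, 4.69 and 4.12 in Nmd+ and 5.27, 4.74 and 3.87 in Nmd-, so replicate 1 was the highest and replicate 3 the lowest in each strain. For the 565 other probe sets whose numbers lie in the range of the tRNA probe sets, the array medians had r of -0.06 with the tRNA medians.

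**Figure D5:**
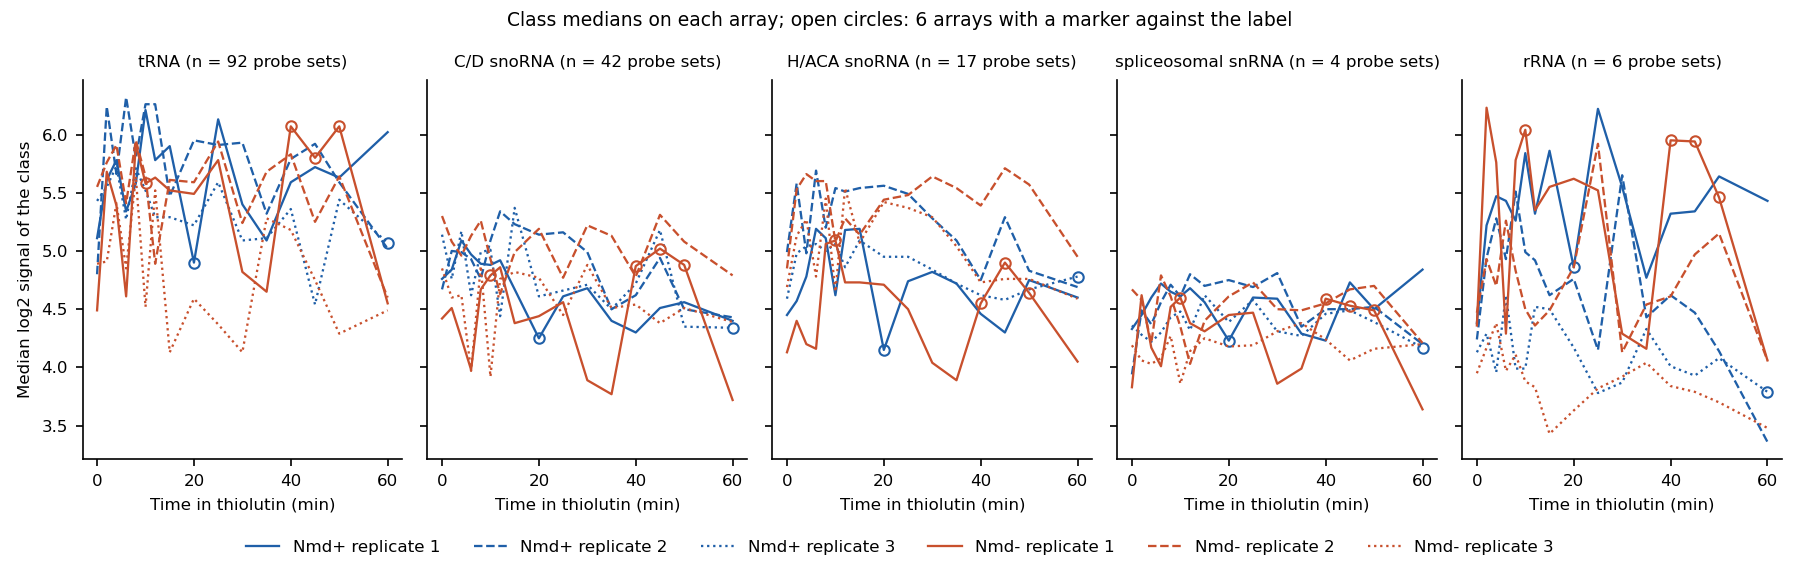
Median log2 signal of each RNA class on each array (vertical axis) against time in thiolutin (horizontal axes, min), with 1 line per course of Nmd+ (blue) and Nmd- (red); open circles mark the 6 arrays with a strain marker against the label. tRNA and rRNA medians swing between neighbouring times, and the Nmd- replicate 3 tRNA course averages 4.81, the lowest of the 6.

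No tRNA gene with a well-known role was called in any of the 5 comparisons. IMT3, which encodes the initiator methionine tRNA, differed by 0.27 at 0 min (limma adjusted p = 0.544) and changed by 0.14 in Nmd+ and -0.34 in Nmd-. CDC65, a glutamine tRNA gene found in a screen for cell cycle mutants, gave 0.02, -0.08 and -0.08. SUP16 and SUP19, serine tRNA genes known for nonsense suppressor alleles, differed by -0.31 and 0.06 at 0 min and by -0.11 and -0.10 over the course. Nonsense suppressors of this kind act on the same codons that trigger NMD, and neither gene was called.

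Most probe sets of the snoRNAs' core protein partners fell over the course. Of 12 probe sets for C/D snoRNP proteins, 9 fell in Nmd+ and 9 in Nmd-, with medians of -2.33 and -1.60, where 14.3% and 11.1% of all probe sets fell. NOP58, a core protein of these particles, gave 4 of the 9 in each strain. NOP1, the methyltransferase fibrillarin, fell by 3.01 and 2.22 (limma adjusted p = 0.000725 and 0.0056), and SNU13, which binds the C/D motif, by 2.45 and 1.88. Of 5 probe sets for H/ACA proteins, 4 fell in each strain (medians -2.26 and -1.69), with CBF5, the pseudouridine synthase, at -2.59 and -1.90 and GAR1 at -2.78 and -2.28. NAF1, an H/ACA assembly factor, gave -0.67 and -0.56 and was not called. Genes for snoRNA and snRNA processing had 12 of 22 probe sets lower in Nmd+ and 10 lower in Nmd- (medians -0.78 and -0.44), among them RNT1 at -1.65 and -1.05 and RRP6, a nuclear exosome nuclease, at -1.52 and -1.15. NRD1 and NAB3, which end snoRNA transcription, were not called (-0.33 and -0.09 in Nmd+). None of these 3 lists had a probe set called between the strains at 0 min. The 18 probe sets of snoRNA host genes had 16 lower in Nmd+ and 11 in Nmd-.

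Strain differences at 0 min were called for protein partners of other noncoding RNAs. Of all probe sets, 4.28% were called higher in Nmd- at 0 min and 2.64% over the course. All 4 probe sets of the telomerase genes EST1, EST2 and EST3 were higher in Nmd- at 0 min: EST1 by 1.06 (limma adjusted p = 0.0163), EST2 by 1.37 (adjusted p = 0.0396) and EST3 by 1.74 and 1.92 (adjusted p = 0.00394 and 0.00183). Over the course 3 of the 4 stayed called, EST1 being the exception. POP3, a subunit shared by RNase P and RNase MRP, was the 1 of 11 probe sets on its list that was higher, by 1.39 at 0 min (adjusted p = 0.00453) and 1.46 over the course (adjusted p = 0.0388). TLC1, the telomerase RNA, gave -0.23 and -0.08 at 0 min (adjusted p = 0.706 and 0.896), and RPR1, the RNase P RNA, 0.04 (adjusted p = 0.966). These genes carry other RNA biotypes in the annotation and so were not members. Over the course, 1 TLC1 probe set fell in both strains, by 1.31 in Nmd+ (adjusted p = 0.000827) and by 0.79 in Nmd- (adjusted p = 0.0104), while the other gave -0.17 and -0.07. RPR1 gave -0.08 and -0.17, and of the 7 probe sets of the rRNA precursor gene RDN37-1 none was called in any comparison.

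Sm and Lsm proteins, which bind the spliceosomal snRNAs and their precursors, had 16 probe sets. Of these, 12.5% were called lower and 6.25% higher in Nmd+ (14.3% and 11.1% of all probe sets). In Nmd- 6.25% were called in each direction (11.1% lower and 9.97% higher of all). In Nmd+ LSM2 fell at 2 of its probe sets (-0.64 and -0.82) and LSM8, part of the ring on U6, rose by 0.82 (limma adjusted p = 0.0182). In Nmd- SMD1 fell by 0.98 and LSM8 rose by 1.08 (adjusted p = 0.00948). Among 6 probe sets of signal recognition particle proteins, SEC65 fell in Nmd+ by 0.62 (adjusted p = 0.025) and 0 were called in Nmd-. No Sm, Lsm or signal recognition particle gene was called between the strains.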

How the data were processed

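The deposited values were 1 table of log2 signals, made by the authors from the scanner images with RMA (version not given in the sources used here). The study's methods speak of natural logs, but the highest deposited value, 14.16, is above 11.09, which a full 16-bit intensity reaches in natural logs, so base 2 was used. The deposited scanner notes, a file of other values per array, gave chip lots and scan dates as batches and nothing else. Array medians ran from 5.86 to 6.08, and the number of arrays limits precision. Groups and times came from the sample titles, since the source names give 1 strain for all arrays. Probe sets were named from the array annotation (6504 with 1 gene name, 328 with several, 2443 with none) and RefSeq assembly R64. The KanMX4 probe set was named from the study's supplement.

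All comparisons used limma 3.58.1 in R 4.3.3 with Benjamini-Hochberg adjustment over the 9275 probe sets. The strain difference at 0 min was also run on simulated data, and the other comparisons were not. The 0 min arrays, the mean over times of each course, or late minus early per course entered as 3 values per strain. Labels name courses as replicates, so p-values measure the spread between courses. Members and gene lists were chosen with earlier results of these data known. Named were the classical noncoding RNAs where they were members, every member called, the 3 largest differences in each direction of each comparison, and for each protein list its called members and up to 2 others. Members outside this rule (SNR64, YNCD0022C, YNCP0007C, YNCM0033C, SNR43, SNR45, the tRNA genes of known role and the other snoRNAs of the SNR72 cluster and of introns) were picked once values were known. The replicate number paired the course means (r = 0.728, 0.576 and 0.827 between same-numbered courses of the strains, as deviations from the strain means over all probe sets), but not the 0 min values (0.103, -0.303 and 0.0589) or the changes (0.296, 0.0385 and 0.179). The plan held 64 alternatives, and 7 were added after seeing the data.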

Additional observations from a re-analysis of the deposited data

Results flagged for a closer look

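SNR43, an H/ACA snoRNA, moved in opposite directions in the courses of the strains. Late minus early signal was 0.41, 0.06 and 0.35 in the 3 Nmd+ courses and -0.23, -0.55 and -0.18 in the 3 Nmd- courses, so the strains did not overlap. The difference in the change, Nmd- minus Nmd+, was -0.59 (SE 0.21, limma adjusted p = 0.342) and was not called. SNR43 was the 1 member of 161 with this pattern, and 3.86% of all probe sets had it in one direction or the other. Neither strain's own change was called (0.27 in Nmd+, adjusted p = 0.204, and -0.32 in Nmd-, adjusted p = 0.149).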

How the results depend on the processing

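The counts of 0 members at 0 min, over the course and for the strain difference in the change held under every alternative run. Some of these could not have shown otherwise. Over the course, 0 of all probe sets were called without Nmd+ replicate 2 or without Nmd- replicate 2. For the difference in the change, 0 of all 9275 were called with the full set of arrays. Pairs of counts in brackets below are all probe sets called higher and lower under the same step. In Nmd+ 12 members were called (1027 and 1330). Leaving out a course gave 4 to 17. The count was 4 without Nmd+ replicate 3 (654 and 962), 6 without Nmd+ replicate 2 (682 and 1045) and 17 without Nmd- replicate 3 (1054 and 1330). It was 6 for 60 against 0 min (673 and 928) and 35 for the slope over all times (1464 and 1482). For 45 to 60 against 2 and 4 min it was 24 (1008 and 1226). It was 113 with scaling to 110 reference probe sets, which moved the median of all probe sets from 0.05 to -0.68 and called 57.2% of them lower. Against that shift the members' median was -0.80. SNR67 reversed there (-0.10). SNR72, SNR75 and SNR77 were called in Nmd+ under all 21 alternatives. In Nmd- 3 members were called (925 and 1031). Leaving out a course gave 0 to 7, with 0 without Nmd- replicate 3 (366 and 541) and 7 without Nmd- replicate 1 (742 and 823). Without Nmd- replicate 2 the count was 2 (544 and 624) and shared 0 with the 3. The count was 5 over probe sets with 1 gene name, 21 after subtracting a running median along the probe set numbers, 62 with the reference scaling, which called 38.3% of all probe sets lower (median -0.49), 25 for 60 against 0 min, 8 for 45 to 60 against 2 and 4 min, 9 for the slope, 12 with the course as a random block and 9 with the scan period as a block. It was 26 without the 6 arrays whose marker goes against the label (1300 and 1201). With both that step and the subtraction it was 76 (1187 and 1244). Centring arrays on their medians gave 2 higher and 2 lower (1071 and 901). With the replicate block it was 12 in Nmd- (987 and 1123) and 18 in Nmd+ (1078 and 1378). The block changed no other call of the members, although the numbers did not pair these changes. The 2 and 4 min window and the combined step were chosen after seeing the data. For the 15 named calls, 259 of the alternative values kept direction and call, 51 kept the direction alone and 1 reversed. Half-widths of the members' intervals had a median of 0.67 at 0 min. These intervals are not adjusted for the number of probe sets, while a call needed an adjusted p. The difference needed for a call was therefore mostly larger than the half-width. Members' differences at 0 min ran from -0.75 to 0.81, and none was called. The smallest difference that could have been called was not worked out. The causes were not tested.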
